A study of Mus musculus with 160 samples.

Results

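Interferon-stimulated genes are the genes that cells switch on when an interferon binds its receptor. The set described here is a list of 45 such genes, and 44 of them were found by symbol and Ensembl identifier among the 39179 genes of the count table (Gbp6 was not analysed here). Their RNA levels were followed in 4 tissues (striatum, cortex, cerebellum, liver) of wild-type (WT) and R6/2 mice. R6/2 mice, labelled Tg(HDexon1)62Gpb on a C57BL/6J background, model Huntington disease: as a transgene they carry human huntingtin exon 1 with an expanded CAG repeat, beside both normal mouse copies. All mice were 12 weeks old and received 1 oral dose, either vehicle (HP-β-CD in citrate buffer) or CHDI-00340246 at 10 mg/kg, a compound that blocks kynurenine monooxygenase, and tissues were taken after 6 h. Each combination of tissue, genotype and treatment was sequenced in 10 libraries, 5 per sex, which makes 16 groups.

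Type I interferons signal through the receptor pair Ifnar1 and Ifnar2 and the kinases Jak1 and Tyk2, which phosphorylate transcription factors such as Stat2. Stat2 and Irf9 are parts of a complex that binds a repeated GAAA element in the promoters of its target genes. The products of those genes sense foreign RNA and DNA, block translation, degrade RNA, interfere with virus assembly and, through Usp18, damp the receptor itself. In the brain, microglia, astrocytes, neurons and vessel cells can all express them. In the liver they are expressed by hepatocytes and by resident macrophages and lymphocytes.

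Promoter sequences were available for 33 of the 45 genes, as the 250 bases before and 50 bases after a RefSeq transcript start (GRCm38.p6). The response element core was searched on both strands as GAAA, any 2 bases, GAAA, with overlapping matches counted separately. It was present in 18 of 33 genes (54.5%), against 3.99% of the 27025 genes with such a window. When 1 mismatch was allowed, the shares were 29 of 33 (87.9%) and 38.9%. A match is a stretch of letters and not a measured binding site. The 6 stretches below are shown because their genes carry the main results: Ifit1, Rsad2 and Gbp3 rose in all 4 tissues, Ddx60 rose in the 3 brain tissues, Stat2 fell in the cerebellum, and Irf7 rose in all 4 tissues with no match in its window. Capitals mark the GAAA units of each match, or TTTC where the match lies on the opposite strand, and each sequence is written on the strand of its gene.
Ifit1 chr19:34640729-34640888 (+ strand, bases -160 to -1 from the start): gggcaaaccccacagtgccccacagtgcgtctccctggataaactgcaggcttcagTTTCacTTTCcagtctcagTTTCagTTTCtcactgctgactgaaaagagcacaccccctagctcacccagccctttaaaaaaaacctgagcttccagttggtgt
Rsad2 chr12:26456453-26456612 (- strand, bases -160 to -1 from the start): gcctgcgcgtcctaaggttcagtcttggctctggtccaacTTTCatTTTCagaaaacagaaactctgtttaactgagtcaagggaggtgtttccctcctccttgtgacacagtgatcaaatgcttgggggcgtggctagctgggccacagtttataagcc
Gbp3 chr3:142559884-142560043 (+ strand, bases -160 to -1 from the start): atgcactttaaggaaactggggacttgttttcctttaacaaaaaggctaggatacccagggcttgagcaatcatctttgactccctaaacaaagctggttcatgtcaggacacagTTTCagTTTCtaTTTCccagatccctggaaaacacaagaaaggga
Ddx60 chr8:61927927-61928086 (+ strand, bases -160 to -1 from the start): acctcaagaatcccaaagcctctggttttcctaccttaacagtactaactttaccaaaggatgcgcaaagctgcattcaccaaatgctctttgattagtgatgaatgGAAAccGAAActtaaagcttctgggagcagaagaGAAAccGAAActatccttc
Stat2 chr10:128270248-128270407 (+ strand, bases -250 to -91 from the start): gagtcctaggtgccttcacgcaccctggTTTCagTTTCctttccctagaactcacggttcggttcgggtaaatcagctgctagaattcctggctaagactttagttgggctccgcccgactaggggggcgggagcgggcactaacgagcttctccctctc
Irf7 chr7:141266425-141266584 (- strand, bases -160 to -1 from the start): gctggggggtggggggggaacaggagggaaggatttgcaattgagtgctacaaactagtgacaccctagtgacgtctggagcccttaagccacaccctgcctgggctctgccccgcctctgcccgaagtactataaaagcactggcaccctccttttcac
The first and the last of these lines show the range: Ifit1, which encodes an RNA-binding inhibitor of translation, had 2 separate matches in the 160 bases before its start, and Irf7 had 0. In Gbp3 the 2 matches share a unit. In Stat2 the match lies in the part of the window farthest from the start.

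Estimated counts per library ran from 28.5 to 46.3 M (M, 10 to the power of 6; median 36.1 M). The count model tested 43 of the 44 genes in each brain tissue and 44 in the liver. Oas3 was left out in the brain, where its highest library under vehicle had 0.291 CPM (counts scaled by library total). Mx1 in the brain and Zbp1 in the cortex and cerebellum averaged under 0.3 CPM in WT and passed the filter on low counts through their R6/2 libraries. The labels do not say whether the 4 tissues came from the same mice, but the specimen numbers repeat in steps of 40, and 40 of 40 positions had 1 genotype, treatment and sex in all 4 tissues. With libraries matched by position and centred on group and sex, 30 of 12597 expressed genes had r over 0.9 in all 6 tissue pairs. The males at positions 7 and 8 (WT, drug and vehicle) stood apart in neutrophil markers, with summed levels of 49.13 and 74.99 CPM in the liver against 0.293 to 3.74 in 37 others, and the male at position 5 (R6/2, drug) reached 10.6 CPM. The same 3 positions were high in liver NF-kappaB and inflammatory genes, at 1393 to 5314 CPM against 88.8 to 335 elsewhere. Results are also given without them.

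Interferon-stimulated genes were higher in R6/2 than in WT mice in every tissue under vehicle, and the brain tissues resembled each other in size and direction. In the striatum 38 of 43 genes rose and 1 fell (Helz2), while 29.7% of all 17494 genes tested rose and 26.5% fell (edgeR's quasi-likelihood test, Benjamini-Hochberg adjusted p under 0.05). The cortex had 39 of 43 higher and 1 lower, against 28.1% and 26.9% of all genes. In the cerebellum 41 of 43 rose and 1 fell, against 26.3% and 26% of all genes. In the liver 28 of 44 rose and 0 fell, against 12.9% and 12.8%. The median log2 fold change of the listed genes was 0.92, 0.78, 0.95 and 0.49 in these 4 tissues, while the median over all genes tested lay between 0.01 and 0.02. Without Mx1 (and Zbp1 in the cortex and cerebellum), 37 of 42, 38 of 41 and 39 of 41 brain genes rose, with medians of 0.87, 0.78 and 0.91. On the authors' FPKM scale (log2(FPKM + 1), no sex term) the median over all liver genes moved to 0.11 and 4737 genes rose against 352 that fell, so the 37 liver members higher on that scale stand against a larger background. In bulk tissue, a change in the number of expressing cells and a change in RNA per cell cannot be told apart.

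**Figure D1:**
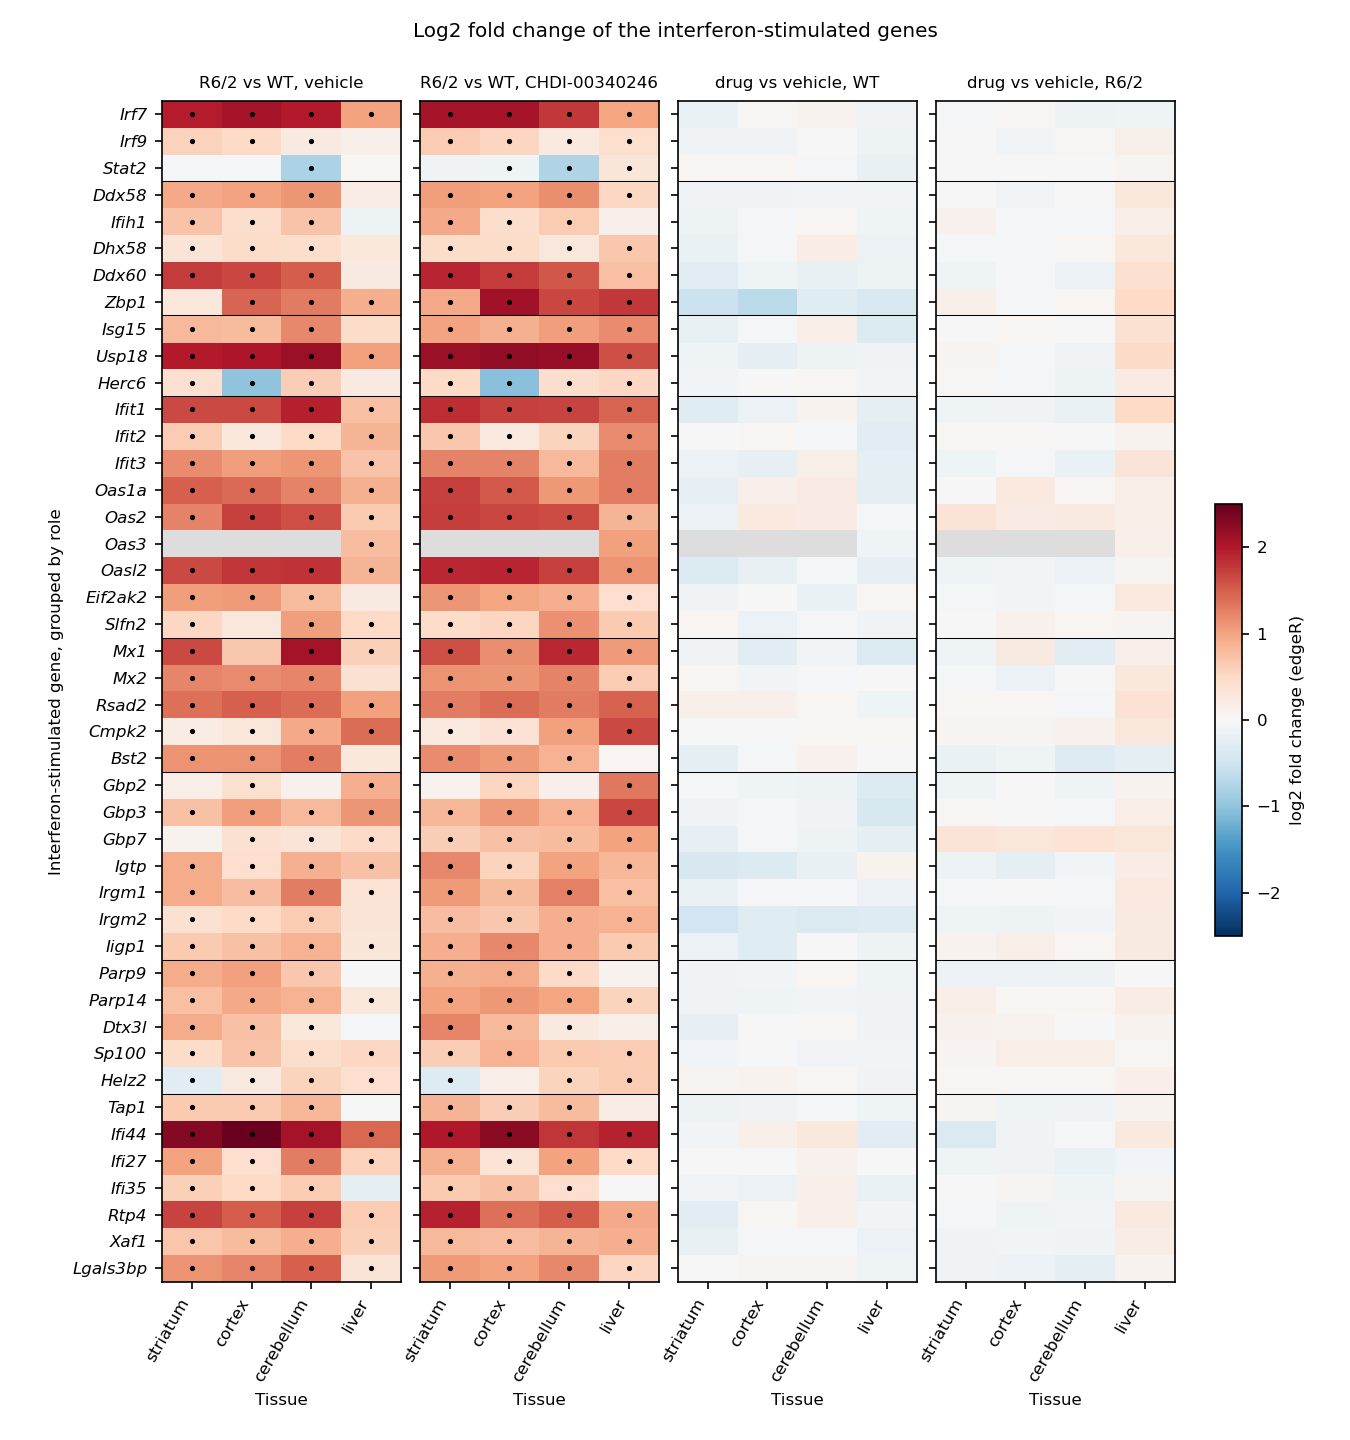
Log2 fold change, as colour, of the 44 measured genes in rows ordered by role and the 4 tissues in columns, in panels for R6/2 over WT under vehicle, R6/2 over WT under CHDI-00340246, drug over vehicle in WT and drug over vehicle in R6/2, where a dot marks an adjusted p under 0.05 and grey a gene not tested. Most brain squares of both genotype panels are above 0, with Stat2 in the cerebellum and Herc6 in the cortex below 0, and the liver squares are paler for the RNA sensors.

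Separation between libraries was common in the brain. Under vehicle, every R6/2 library was above every WT library for 24 genes in the striatum, 20 in the cortex and 29 in the cerebellum, against 7.72%, 6.19% and 7.55% of all genes. In the liver this held for 1 gene, Cmpk2, against 0.304% of all genes. The reverse, every R6/2 library below every WT library, held for 0 genes in the striatum, 1 in the cortex (Herc6), 1 in the cerebellum (Stat2) and 0 in the liver, against 9.39%, 7.94%, 9.67% and 0.271% of all genes. Across tissues, 35 of 43 genes were higher in all 3 brain tissues (12.5% of all genes), and 21 of 43 were higher in all 4 tissues (2.22% of all genes). Without Mx1 and Zbp1 these were 35 of 41 and 21 of 41.

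Among the transcription factors, the behaviour of the 3 members differed. Irf7, which amplifies interferon transcription once induced, was 1.08 CPM in the lowest WT vehicle striatum library, 1.82 at the median and 3.69 in the highest, against 4.96, 7.54 and 8.80 CPM in R6/2. The groups did not overlap, and the log2 fold change was 1.96 ± 0.14 (SE; adjusted p = 2.3e-14, edgeR's quasi-likelihood test with Benjamini-Hochberg adjustment, used for every adjusted p below). Its change was 2.08 ± 0.14 in the cortex and 1.98 ± 0.10 in the cerebellum, again with no overlap. In the liver Irf7 ranged from 17.7 to 44.5 CPM in WT (median 26.3) and from 34.2 to 77.9 CPM in R6/2 (median 60.95), a change of 1.01 ± 0.15 (adjusted p = 4.9e-06) with overlapping groups.

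Irf9, the DNA-binding partner of the complex, rose less. In the striatum it was 9.54, 12.9 and 20.1 CPM (lowest, median, highest) in WT and 17.8, 20.3 and 23.7 CPM in R6/2, a log2 fold change of 0.57 ± 0.09 (adjusted p = 9.3e-07). The change was 0.51 ± 0.09 in the cortex (adjusted p = 1.1e-05) and 0.22 ± 0.09 in the cerebellum. The cerebellar call was marginal (adjusted p = 0.047) and was lost with other normalization factors, without the filter, without replicate 1, 2, 3 or 4, and without the WT vehicle library at position 40. In the liver the value of Irf9 was 0.14 ± 0.09 (adjusted p = 0.25).

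Stat2, which supplies the activation domain of the complex, did not rise under vehicle in any tissue. In the cerebellum it was 107.3, 113.5 and 126.6 CPM in WT and 60.1, 67.2 and 69.7 CPM in R6/2. All 10 R6/2 libraries lay below all 10 WT libraries, and Stat2 fell by 0.80 on the log2 scale (SE 0.03; adjusted p = 2.6e-21). It had the highest level per length of all listed genes in the WT cerebellum, 25.7 ± 1.3 FPKM (fragments scaled by gene length and library total; SD, n = 10), against 15.5 ± 0.7 FPKM in R6/2. In the other tissues no change passed the test, with values of -0.02 ± 0.05 in the striatum, -0.04 ± 0.04 in the cortex and 0.04 ± 0.10 in the liver (adjusted p = 0.71, 0.39 and 0.78).

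**Figure D2:**
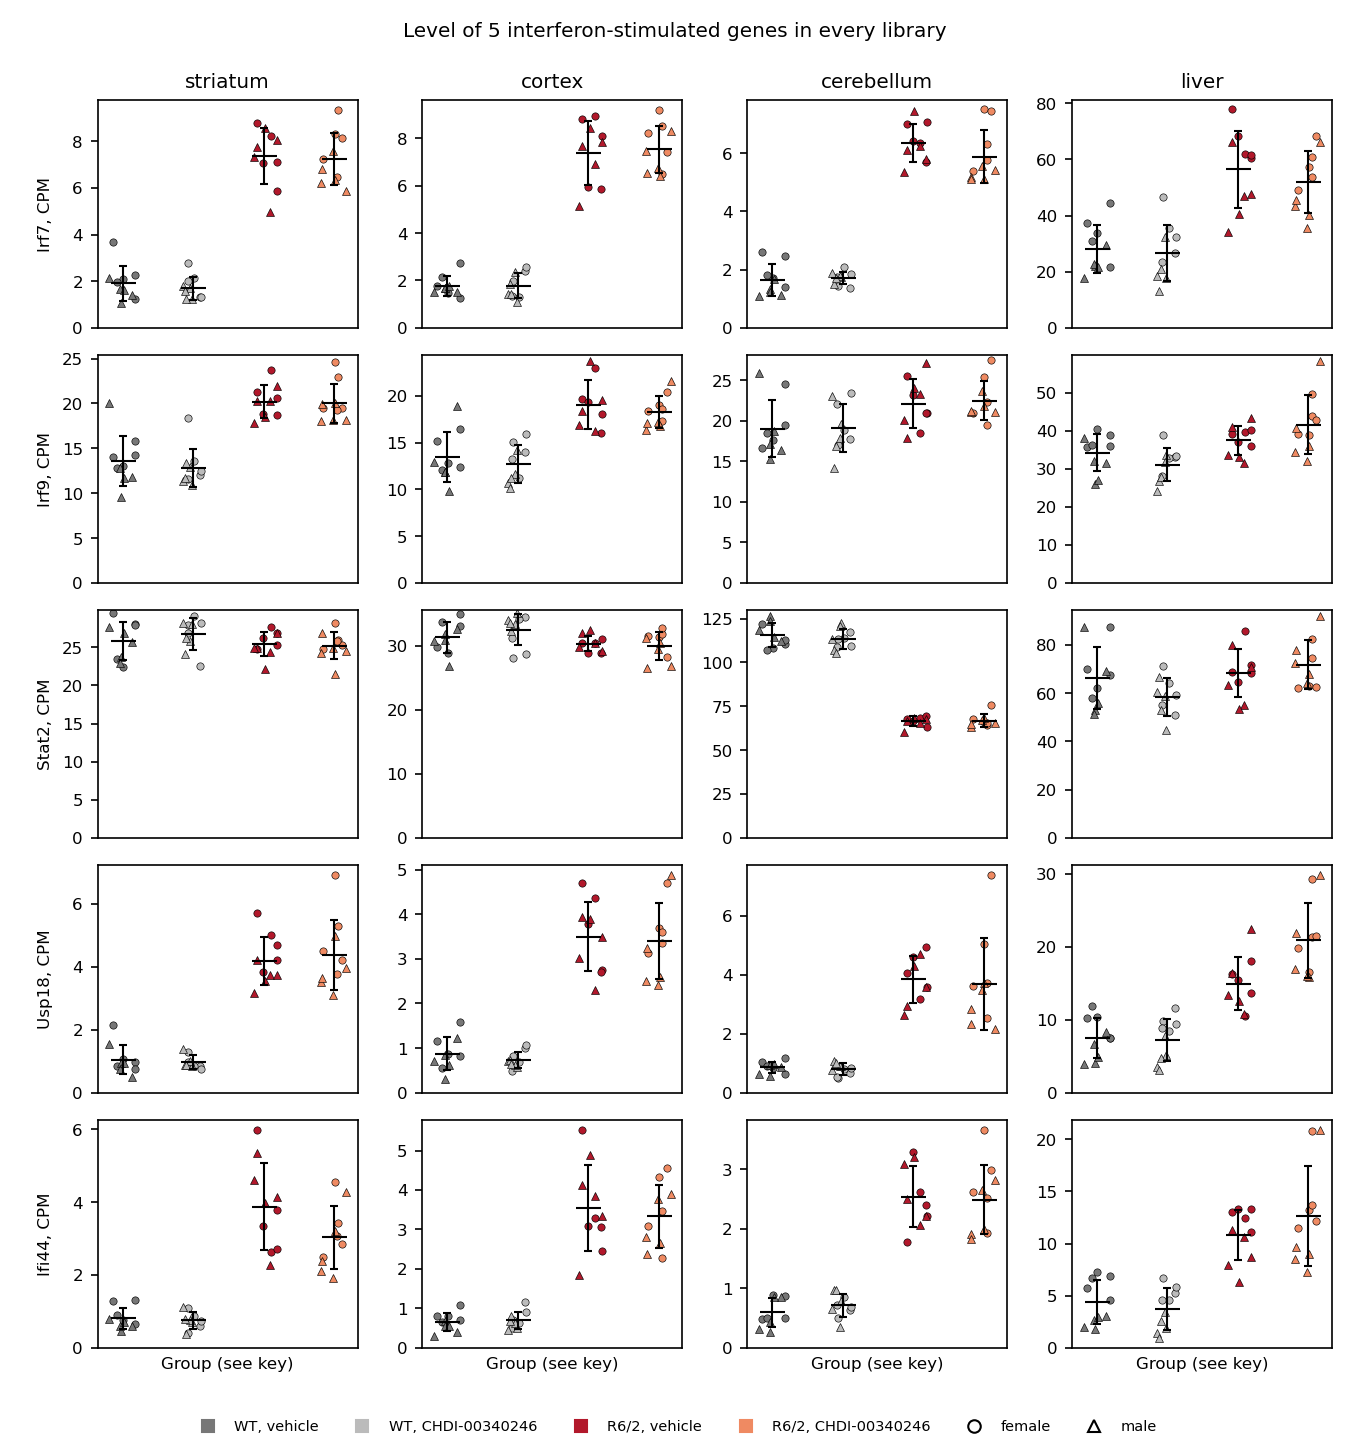
CPM on a linear axis from 0 of Irf7, Irf9, Stat2, Usp18 and Ifi44 in each library, by tissue, genotype and treatment, with circles for females and triangles for males; bars show the mean ± SD of 10 libraries. Irf7, Usp18 and Ifi44 separate the genotypes in the brain under both treatments, and Stat2 is lower in R6/2 in the cerebellum.

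RNA and DNA sensors rose together in the brain. In the striatum 4 of 5 passed (median log2 fold change 0.72), and in the liver 1 of 5 (0.22). In the cortex and cerebellum 4 of 4 passed (0.73 and 0.91), leaving out Zbp1, which was kept there by its R6/2 libraries alone. Beside the counts by role here and below, 29.7%, 28.1%, 26.3% and 12.9% of all genes rose in the striatum, cortex, cerebellum and liver. The shares that fell were 26.5%, 26.9%, 26% and 12.8%. A count near these shares is no result about that role. Ddx60, a helicase linked to RNA sensing, was 0.347, 0.930 and 2.56 CPM in WT striatum and 2.15, 3.30 and 4.68 CPM in R6/2, a change of 1.752 ± 0.18 (adjusted p = 1.7e-10). The groups overlapped through 1 high WT library. Ddx58, which encodes the RNA sensor RIG-I, rose by 0.96 ± 0.08, 1.01 ± 0.07 and 1.11 ± 0.07 in the 3 brain tissues. Ifih1, which encodes the RNA sensor MDA5, rose by 0.72 ± 0.06, 0.45 ± 0.08 and 0.71 ± 0.09. In the liver these genes were at 0.19 ± 0.09 (Ddx58) and -0.13 ± 0.09 (Ifih1), and the sensor that passed there was Zbp1, a receptor for Z-form nucleic acids, with 0.90 ± 0.22. That liver value averages the sexes, and the effect on Zbp1 was lower in females than in males by a marginal call, as given below.

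Genes of ISG15 conjugation held both a strong rise and a strong fall. Usp18, the protease that removes the ubiquitin-like protein Isg15 and restrains the receptor, was 0.504, 0.953 and 2.15 CPM in WT striatum and 3.18, 4.02 and 5.71 CPM in R6/2. No libraries overlapped, and the change was 1.98 ± 0.16 (adjusted p = 4.8e-13). It was 2.02 ± 0.18 in the cortex, 2.15 ± 0.16 in the cerebellum and 1.03 ± 0.16 in the liver. Isg15 itself rose by 0.82 ± 0.16, 0.79 ± 0.14 and 1.20 ± 0.12 in the brain and was at 0.46 ± 0.18 in the liver (adjusted p = 0.055).

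Herc6, which encodes the ligase that attaches Isg15 in mice, fell in the cortex. It was 18.9, 26.1 and 34.01 CPM in WT cortex and 10.2, 12.9 and 18.8 CPM in R6/2. All R6/2 libraries lay below all WT libraries, and the change was -1.003 ± 0.09 (adjusted p = 3.6e-12). In the striatum and cerebellum Herc6 rose by 0.41 ± 0.08 and 0.62 ± 0.09.

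Effectors that block translation or degrade RNA rose in all 4 tissues, with 1 exception in the cortex and 1 in the liver. All 8 tested members rose in the striatum (median 1.22) and in the cerebellum (1.17), 7 of 8 in the cortex (1.24), and 8 of 9 in the liver (0.75). Ifit1 was 1.46, 2.21 and 3.21 CPM in WT cerebellum and 6.47, 9.02 and 10.3 CPM in R6/2, a change of 1.95 ± 0.12 (adjusted p = 4.1e-17) with no overlap. Oasl2, a member of the oligoadenylate synthetase family, was 2.03, 2.71 and 3.69 CPM in WT cerebellum and 7.02, 10.4 and 12.8 CPM in R6/2, a change of 1.81 ± 0.14 (adjusted p = 4.2e-14). Neither gene had a WT library within the R6/2 range.

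In the cortex Oasl2 changed by 1.79 ± 0.14 and Oas2, which makes the oligoadenylates that activate RNase L, by 1.72 ± 0.21. Oas2 was 0.277, 0.471 and 1.12 CPM in WT cortex and 1.37, 1.60 and 2.72 CPM in R6/2, without overlap. The Oas1, Ifit3, Mx2, Slfn2 and GTPase genes have near-identical copies, and how reads were shared among copies is not given, so their single values are less certain than those of Irf7 or Usp18.

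Genes acting on virus entry, replication or release rose in 4 of 4 cases in the striatum (median 1.18), cortex (1.145) and cerebellum (1.26), leaving out Mx1, which was kept in the brain by its R6/2 libraries alone, and in 3 of 5 in the liver (0.59). Bst2, which tethers budding virus to the membrane, rose by 1.12 ± 0.16, 1.12 ± 0.12 and 1.29 ± 0.16 in the brain and was at 0.26 ± 0.11 in the liver. Rsad2, the enzyme viperin that makes a chain-terminating nucleotide, rose by 1.37 ± 0.11, 1.49 ± 0.12 and 1.39 ± 0.17 in the brain and by 1.02 ± 0.18 in the liver. Cmpk2, a nucleotide kinase encoded next to Rsad2, had another order, with 0.18 ± 0.06 in the striatum, 0.29 ± 0.06 in the cortex, 0.95 ± 0.06 in the cerebellum and 1.39 ± 0.18 in the liver. In the liver Cmpk2 was 1.41, 4.11 and 5.81 CPM in WT and 6.84, 8.25 and 16.3 CPM in R6/2 (adjusted p = 4.9e-07).

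The interferon-inducible GTPases, which attack the vacuoles of intracellular pathogens, rose in 5 of 7 cases in the striatum (median 0.66), 7 of 7 in the cortex (0.50), 6 of 7 in the cerebellum (0.82) and 6 of 7 in the liver (0.48). Irgm1 rose by 0.93 ± 0.06, 0.76 ± 0.06, 1.28 ± 0.09 and 0.35 ± 0.10 in the 4 tissues. Gbp3 rose by 0.73 ± 0.13, 1.05 ± 0.13, 0.82 ± 0.12 and 1.11 ± 0.14. Gbp2 passed in the cortex (0.41 ± 0.12) and in the liver (0.90 ± 0.14), and was at 0.16 ± 0.11 in the striatum and 0.12 ± 0.11 in the cerebellum. These values average the sexes. In the liver the effect on Gbp2, Gbp3, Gbp7, Igtp and Irgm2 was lower in females than in males, as given below.

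Regulators of ADP-ribosylation and nuclear factors rose in 4 of 5 cases in the striatum, where 1 fell, in 5 of 5 in the cortex and cerebellum, and in 3 of 5 in the liver. Parp9 and Dtx3l, which overlap in the genome and whose products act as a complex, rose in the brain by 0.93 ± 0.10, 1.02 ± 0.09 and 0.67 ± 0.08 (Parp9) and by 0.92 ± 0.08, 0.74 ± 0.06 and 0.25 ± 0.08 (Dtx3l). In the liver they were at 0.01 ± 0.09 and -0.03 ± 0.07. Helz2, a helicase and nuclear receptor coactivator, was 7.53, 10.8 and 13.04 CPM in WT striatum and 6.64, 8.78 and 10.8 CPM in R6/2. The groups overlapped, and Helz2 fell there by 0.29 on the log2 scale (SE 0.09; adjusted p = 3.7e-03), a call that ended without replicate 5 (adjusted p = 0.065) and on the FPKM scale, where the median over all striatum genes was 0.11. It rose by 0.23 ± 0.08 in the cortex, 0.56 ± 0.08 in the cerebellum and 0.43 ± 0.10 in the liver.

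The 7 remaining genes rose in all 3 brain tissues, and 5 of 7 rose in the liver. Ifi44 had the largest change of the listed genes in the striatum and cortex. In the striatum it was 0.465, 0.727 and 1.32 CPM in WT and 2.27, 3.87 and 5.98 CPM in R6/2, a change of 2.29 ± 0.20 (adjusted p = 1.7e-12) with no overlap. In the cortex it changed by 2.48 ± 0.18, in the cerebellum by 2.09 ± 0.19 and in the liver by 1.43 ± 0.18 (adjusted p = 3.9e-07). Rtp4, a chaperone of membrane receptors, was 1.36, 1.69 and 2.58 CPM in WT striatum and 4.88, 5.65 and 7.81 CPM in R6/2, a change of 1.68 ± 0.12 (adjusted p = 5.2e-15). All 10 R6/2 striatum libraries exceeded all WT libraries for both genes. The peptide transporter Tap1 rose by 0.65 ± 0.12, 0.65 ± 0.10 and 0.83 ± 0.11 in the brain and was at 0.01 ± 0.11 in the liver.

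Per length, the abundant members were few. Ifi27, a membrane protein of mitochondria and the nuclear envelope, was highest in the WT striatum at 19.3 ± 2.4 FPKM (SD, n = 10), followed by Cmpk2 at 6.87 ± 1.02, Xaf1 at 5.70 ± 0.57 and Stat2 at 5.54 ± 0.60, neighbours whose SDs overlap. In the R6/2 striatum Ifi27 reached 42.7 ± 4.5 FPKM, followed by Ifit3 at 13.2 ± 2.0 and Lgals3bp at 11.2 ± 2.0. The liver had higher levels and another order, with Bst2 at 113.2 ± 29.4 FPKM, Iigp1 at 102.8 ± 27.3 FPKM and Ifi27 at 57.2 ± 10.3 in WT. Irf7 was 1.10 FPKM in the WT striatum and 14.8 FPKM in the WT liver. Ifi44, with the largest fold change, was among the lowest, at 0.266 FPKM in the WT striatum.

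The differences between tissues were tested in 1 fit over all 160 libraries, in which 44 genes and 19446 in all were tested. Values are signed differences of the R6/2 over WT log2 fold change, so a fall in one tissue also gives a difference. Between brain tissues the shares of listed genes that passed were near or below those of all genes. For the cerebellum minus the striatum, 3 genes were higher and 3 lower, against 12.9% and 14.7% of all genes. Helz2 (0.85 ± 0.13), Cmpk2 (0.77 ± 0.14) and Irgm1 (0.34 ± 0.12) had the higher log2 fold change in the cerebellum. Dtx3l (-0.67 ± 0.11) and Irf9 (-0.35 ± 0.13) rose less there than in the striatum, and the difference of Stat2 (-0.78 ± 0.09) came with its fall in the cerebellum.

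For the cortex minus the striatum, 2 genes were higher and 4 lower, against 6.72% and 8.88% of all genes. Herc6 differed most (-1.43 ± 0.14; adjusted p = 3.4e-16), followed by Ifi27 (-0.59 ± 0.15), Igtp (-0.51 ± 0.19) and Ifit2 (-0.39 ± 0.14) in the same direction and by Zbp1 (1.18 ± 0.41) and Helz2 (0.50 ± 0.13) in the other. For the cerebellum minus the cortex, 7 were higher and 2 lower, against 11.8% and 9.77%, led by Herc6 (1.64 ± 0.14), Ifi27 (0.87 ± 0.16) and Stat2 (-0.74 ± 0.09). The 7 include Mx1, and the genes higher for the cortex minus the striatum include Zbp1. Both averaged under 0.3 CPM in WT cortex, so their differences rest on low counts and are not read as tissue differences. Several of these calls were lost when 1 replicate number was left out: Irgm1 and Irf9 for the cerebellum against the striatum, and Helz2, Ifit2, Zbp1 and Igtp for the cortex against the striatum. This fit treats the 4 libraries of a specimen position as independent. With limma-voom, Irgm1 (cerebellum against striatum), Zbp1 and Igtp missed the threshold both with the specimen position as a block (adjusted p = 0.065, 0.15 and 0.13) and without it (adjusted p = 0.080, 0.18 and 0.16).

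The liver differed from the mean of the 3 brain tissues for most members. Of 44 genes, 26 had a lower and 5 a higher log2 fold change in the liver, against 17.8% and 20.5% of all genes. The 26 include Mx1, which averaged under 0.3 CPM in each WT brain tissue. The RNA sensors Ddx60 (-1.39 ± 0.18), Ddx58 (-0.81 ± 0.09) and Ifih1 (-0.73 ± 0.09) and the pair Parp9 (-0.84 ± 0.10) and Dtx3l (-0.64 ± 0.08) had the lower one in the liver. Irf7 differed by -0.97 ± 0.14. Cmpk2 (0.94 ± 0.12), Gbp2 (0.70 ± 0.14), Ifit2 (0.40 ± 0.11) and Helz2 (0.29 ± 0.10) had the higher one. For Gbp2 the liver effect is a mean over sexes that differed, as given below. The value of Stat2 (0.36 ± 0.07) was above 0 with a fall in the cerebellum and no change past the threshold in the liver. The joint fit uses 1 spread per gene for all tissues. The common biological coefficient of variation was 0.25 in the liver fit and 0.15 to 0.17 in the brain fits. For Cmpk2 the SE was 0.12 here and 0.18 in the liver fit alone. The SEs of liver minus brain can therefore be too small and the calls too sure.

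**Figure D3:**
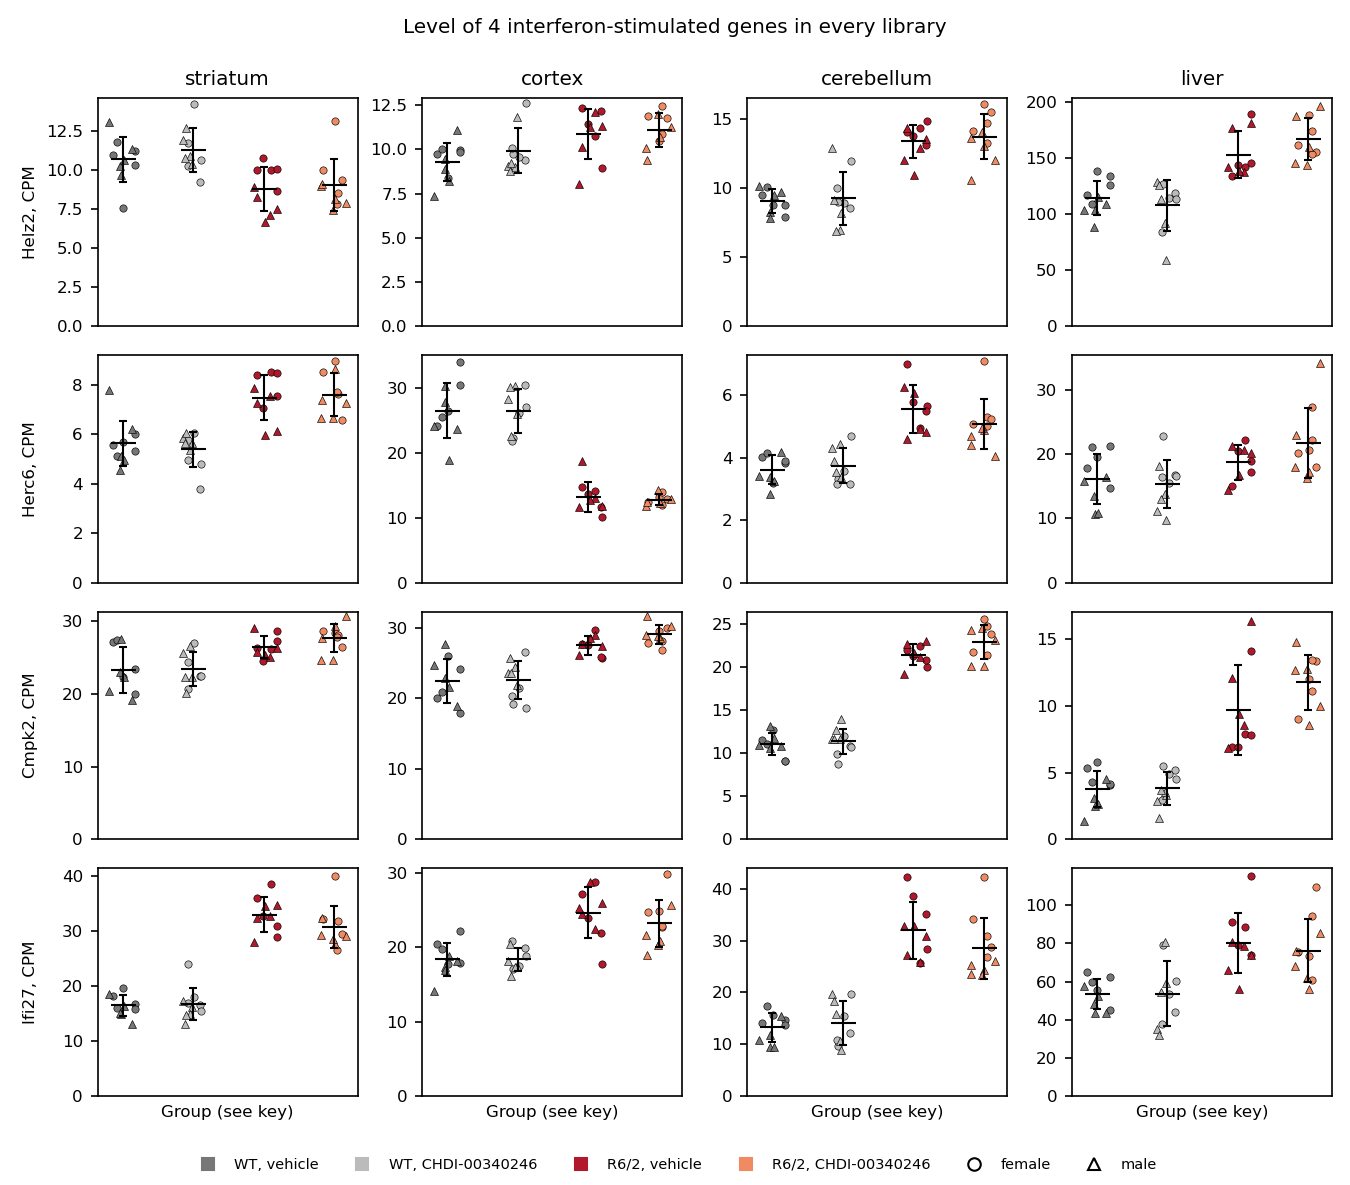
CPM on a linear axis from 0 of Helz2, Herc6, Cmpk2 and Ifi27 in each library, by tissue, genotype and treatment, with circles for females and triangles for males; bars show the mean ± SD of 10 libraries. Herc6 is lower in R6/2 in the cortex alone among the 4 tissues, and the genotype gap of Cmpk2 is wider in the cerebellum and liver than in the striatum.

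The genotype difference was also present in the mice given CHDI-00340246, which are other libraries. In the striatum 40 of 43 genes rose and 1 fell (29.7% and 28.4% of all genes), in the cortex 40 rose and 2 fell (29.2% and 27.9%), in the cerebellum 41 rose and 1 fell (27.9% and 26.7%), and in the liver 38 of 44 rose and 0 fell (15.1% and 13.7%). The median log2 fold change was 1.004, 0.92, 0.996 and 0.80. Separation of all R6/2 libraries above all WT libraries was seen for 31, 28, 23 and 10 genes, against 8.71%, 8.02%, 8.24% and 0.568% of all genes, and separation below them for 0, 1, 1 and 0 genes, against 9.27%, 10.3%, 8.8% and 0.475%. Without Mx1 (and Zbp1 in the cortex and cerebellum), 39 of 42, 38 of 41 and 39 of 41 brain genes rose, with medians of 0.98, 0.89 and 0.91. Separation above WT then held for 30, 27 and 23 genes. The genes higher under vehicle were again higher here for 38 of 38, 38 of 39, 41 of 41 and 28 of 28 genes. The brain counts of that comparison include Mx1 or Zbp1. The share of all genes higher under both treatments is not given, so these counts are not read as a result about the members.

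Irf7 rose by 2.09 ± 0.15 in the striatum, 2.08 ± 0.14 in the cortex and 1.77 ± 0.10 in the cerebellum. In the striatum Rtp4 rose by 1.93 ± 0.12, Dtx3l by 1.22 ± 0.08, Irgm1 by 1.06 ± 0.06 and Ifih1 by 0.95 ± 0.06. Gbp7, at 0.10 ± 0.13 in the striatum and 0.38 ± 0.11 in the cortex under vehicle, rose by 0.62 ± 0.13 and 0.73 ± 0.11 under the drug, and Iigp1 in the cortex by 0.74 ± 0.14 and 1.19 ± 0.14 under the respective treatments. These differences between treatments did not pass the interaction test. The kinase Eif2ak2, which halts translation on double-stranded RNA, rose by 0.99 ± 0.06 in the cortex. Stat2 fell again in the cerebellum, by 0.76 on the log2 scale (SE 0.03), with 63.01, 65.7 and 75.8 CPM in R6/2 against 105.6, 113.5 and 122.7 CPM in WT. Herc6 again fell in the cortex (-1.05 ± 0.09), Helz2 in the striatum (-0.32 ± 0.09, adjusted p = 1.3e-03), and Stat2 fell slightly in the cortex (-0.11 ± 0.04, adjusted p = 0.020). The Helz2 call was lost with runs of library numbers and on either FPKM scale. In the cortex only 1 member was lower without the filter, on either FPKM scale, without replicate 1 or 2, and without positions 5, 7 and 8.

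In the liver 10 genes passed under CHDI-00340246 and not under vehicle: Irf9, Stat2, Ddx58, Ddx60, Dhx58, Eif2ak2, Herc6, Irgm2, Isg15 and Mx2. Irf9 was at 0.42 ± 0.09 (adjusted p = 3.6e-04) and Stat2 at 0.30 ± 0.10 (adjusted p = 0.021). Ifi44 rose by 1.92 ± 0.18, Gbp3 by 1.67 ± 0.14, Cmpk2 by 1.66 ± 0.18 and Usp18 by 1.61 ± 0.16. The share of all liver genes that passed under the drug alone is not given. None of the 44 genes passed the test of the difference between the treatments, given next.

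No interferon-stimulated gene passed the test for an effect of CHDI-00340246, in WT or in R6/2 mice, or for the interaction of drug and genotype, in any of the 4 tissues (edgeR's quasi-likelihood test). DESeq2 also passed 0. Of all genes, 0% passed for the drug in WT and for the interaction in all 4 tissues, and 0%, 0.125%, 0.0407% and 0.0726% passed for the drug in R6/2 striatum, cortex, cerebellum and liver. At an unadjusted p under 0.05, the genes numbered 9, 4, 2 and 3 in WT (striatum, cortex, cerebellum, liver), 1, 1, 2 and 12 in R6/2, and 5, 2, 2 and 16 for the interaction. Of all genes, 3.62%, 10.3%, 6.27% and 3.19% were under that value in WT, 6.39%, 7.27%, 4.09% and 7.51% in R6/2, and 2.61%, 5.07%, 5.35% and 2.52% for the interaction.

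In WT the smallest unadjusted p was that of the GTPase Irgm2 in the striatum, in the R6/2 brain that of Gbp7 in the cerebellum, and in the R6/2 liver that of Usp18. Irgm2 in WT striatum was 4.43, 5.55 and 7.75 CPM under vehicle and 3.18, 3.82 and 6.20 CPM under the drug, a value of -0.49 ± 0.11 (adjusted p = 0.78). Gbp7 in R6/2 cerebellum was 4.01, 5.20 and 7.03 CPM under vehicle and 4.96, 6.89 and 9.10 CPM under the drug, a value of 0.34 ± 0.12 (adjusted p = 0.97). In R6/2 striatum and cortex Gbp7 was at 0.33 ± 0.13 and 0.29 ± 0.11 (adjusted p = 0.74 and 0.46). The groups overlapped in each of these tissues.

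In the R6/2 liver the values were mostly above 0 under the drug, for 40 of 44 genes with a median of 0.17 (51.1% of all genes), and in the WT liver for 5 of 44 with a median of -0.12 (47.5% of all genes). Usp18 in R6/2 liver was 10.5, 14.5 and 22.4 CPM under vehicle and 15.9, 20.6 and 29.9 CPM under the drug (0.48 ± 0.16; adjusted p = 0.43). For the liver interaction the 3 genes with the smallest p were Irgm2 (0.55 ± 0.17), Gbp7 (0.52 ± 0.17) and Gbp3 (0.56 ± 0.20), while Zbp1 (0.87 ± 0.30) and Isg15 (0.73 ± 0.26) had larger values (adjusted p = 1 for each). The genes of a tissue share their libraries, so the number of genes on one side of 0 is a description. Irf7 was within 0.16 of 0 in all 8 drug comparisons.

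**Figure D4:**
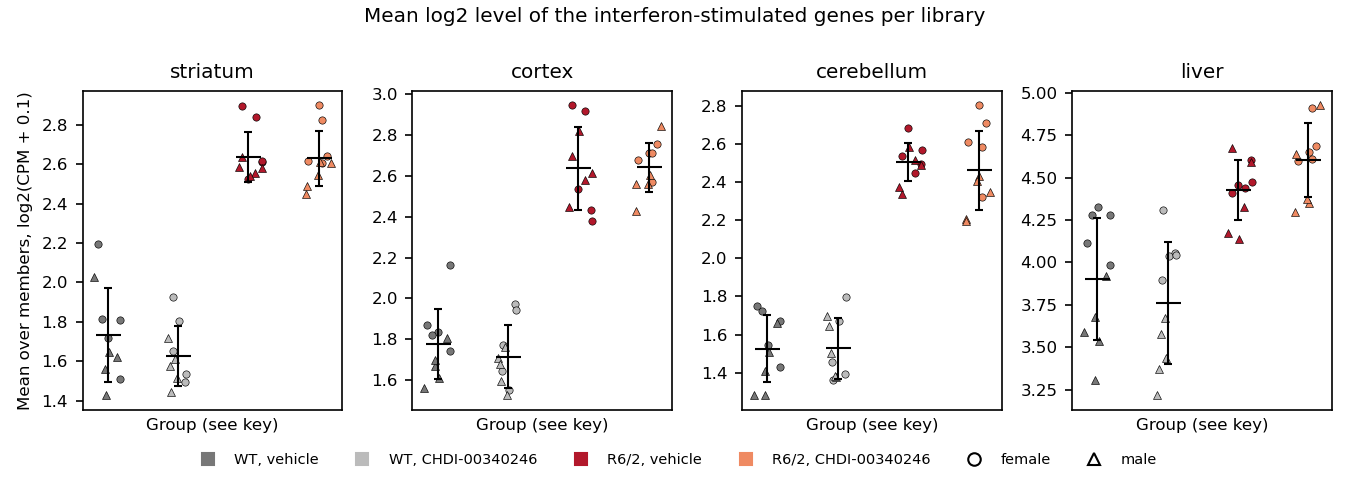
Mean log2(CPM + 0.1) over the tested interferon-stimulated genes in each library, by tissue, genotype and treatment, with circles for females and triangles for males; bars show the mean ± SD of 10 libraries. The R6/2 means lie above the WT means in all 4 tissues, with single libraries overlapping in the liver, and vehicle and CHDI-00340246 groups of a genotype overlap.

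The mean log2 level over the tested genes summarises each library. Its median in the striatum was 1.68 in WT vehicle, 1.59 in WT under the drug, 2.60 in R6/2 vehicle and 2.61 in R6/2 under the drug. In the cortex these were 1.78, 1.70, 2.60 and 2.64, in the cerebellum 1.53, 1.48, 2.504 and 2.42, and in the liver 3.95, 3.79, 4.45 and 4.62. The R6/2 and WT vehicle ranges were apart in the striatum (2.52 to 2.89 against 1.43 to 2.20), the cortex (2.38 to 2.95 against 1.56 to 2.17) and the cerebellum (2.34 to 2.68 against 1.281 to 1.751), and overlapped in the liver (4.14 to 4.67 against 3.31 to 4.32). One WT vehicle female, at position 40, had the highest WT cortex value, 2.17, and was chosen for a separate look after its values were seen. Without it, 38, 40, 40 and 28 genes were higher in the 4 tissues.

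Libraries at the same specimen position shared part of their deviation from the group mean. Over 40 positions the mean level correlated with r = 0.701 between striatum and cortex, 0.388 between striatum and cerebellum, 0.338 between cortex and cerebellum, and 0.203 to 0.435 between liver and a brain tissue, given as a description with no test. Among single genes the lowest of the 6 tissue-pair correlations was highest for Gbp7 (0.540), Irgm2 (0.476) and Irf7 (0.381).

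The liver genotype effect depended on sex for 6 genes, all with the lower log2 fold change in females: Gbp2, Gbp3, Gbp7, Igtp, Irgm2 and Zbp1. Of all liver genes, 2.3% had a lower and 1.97% a higher one in females. Gbp2 had the largest interaction. In WT males its 5 vehicle livers were at 2.62, 3.40, 3.70, 3.73 and 6.79 CPM, and in R6/2 males at 12.9, 14.3, 14.3, 15.5 and 21.1 CPM. In WT females they were at 8.23, 9.58, 12.5, 13.1 and 13.7 CPM, and in R6/2 females at 7.82, 9.69, 10.7, 11.03 and 12.5 CPM. The male groups were apart and the female groups overlapped, and the female minus male difference of the effect was -2.08 ± 0.29 (adjusted p = 6.2e-06).

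Gbp3 was at 3.21, 3.82, 4.61, 4.64 and 9.23 CPM in WT males and at 17.3, 17.96, 18.2, 19.7 and 26.3 CPM in R6/2 males, while the female means were 16.5 ± 4.2 CPM (WT) and 19.7 ± 2.8 CPM (R6/2; SD, n = 5 each). The interaction was -1.70 ± 0.28 (adjusted p = 1.1e-04). For Igtp the means were 29.96 ± 9.9 and 89.3 ± 35.96 CPM in WT and R6/2 males and 73.6 ± 18.1 and 68.2 ± 10.4 CPM in females, with an interaction of -1.69 ± 0.31 (adjusted p = 6.1e-04). In each of these 3 genes the WT males were the low group. Gbp7 (-1.32 ± 0.24), Irgm2 (-1.06 ± 0.24) and Zbp1 (-1.44 ± 0.43) had the same order. The call of Zbp1 was marginal (adjusted p = 0.049) and was lost under several alternatives, and that of Irgm2 was lost without replicate 4 (adjusted p = 0.052).

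The liver transcription factor Cux2, which in mice is expressed in the female liver, changed in the same livers. It averaged 0.323 CPM in WT males (0.179 to 0.512), 34.1 CPM in WT females, 31.5 CPM in R6/2 males and 40.8 CPM in R6/2 females under vehicle, and its part in the result was not tested. The mean log2 level of the listed genes was 3.61 ± 0.22 in WT males and 4.20 ± 0.14 in WT females, against 4.38 ± 0.24 and 4.48 ± 0.07 in R6/2 (SD, n = 5). Without positions 5, 7 and 8, which are males, 7 genes passed the interaction, with no share of all genes given for that fit. In the brain 0 genes passed it, with 3, 4 and 3 at an unadjusted p under 0.05, and 0 by DESeq2. Of all brain genes 0% passed, and 6.24%, 9.64% and 3.14% were at an unadjusted p under 0.05.

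**Figure D5:**
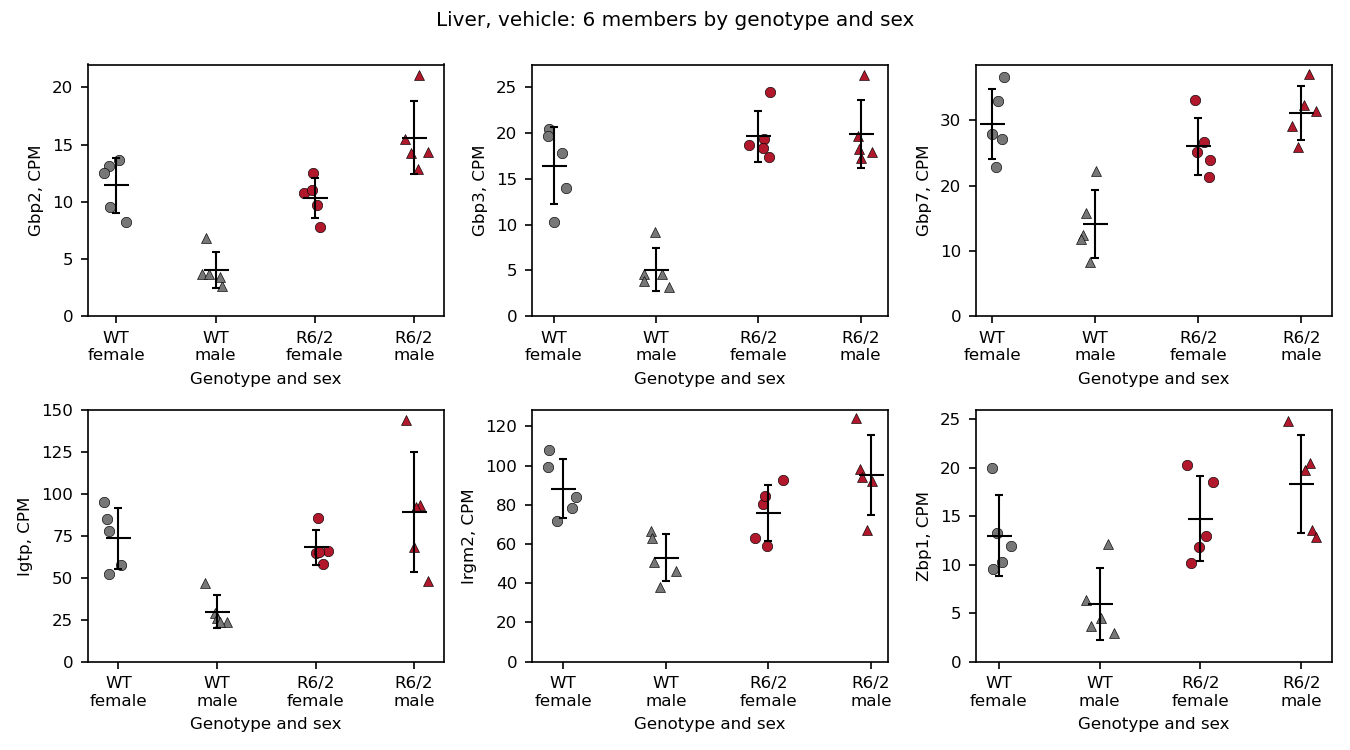
CPM on a linear axis from 0 of Gbp2, Gbp3, Gbp7, Igtp, Irgm2 and Zbp1 in vehicle livers, by genotype and sex; bars show the mean ± SD of 5 libraries. WT males form the low group of each panel, and R6/2 males reach the levels of the females.

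The ligands were near or below detection, while several receptor genes rose in the brain. No interferon gene passed the filter on low counts in any tissue, and the highest vehicle library was 0.236 CPM for Ifng in the liver. Ifnb1 and Ifna1 were at 0 in all vehicle libraries, which at this depth does not show that they are absent. For the list counts here and below, 29.7%, 28.1%, 26.3% and 12.9% of all genes rose in the striatum, cortex, cerebellum and liver. The shares that fell were 26.5%, 26.9%, 26% and 12.8%. A list count near these shares is no result about that list. Of the 6 genes tested in the brain from a list of interferons and receptors, 4 rose in the striatum, 4 rose and 1 fell in the cortex, and 3 rose and 1 fell in the cerebellum. The type I receptor subunit Ifnar1 rose by 0.13 ± 0.03 in the striatum (44.3 to 48.6 CPM, group means), 0.13 ± 0.03 in the cortex and 0.13 ± 0.04 in the cerebellum, and Ifnar2 by 0.20 ± 0.05, 0.22 ± 0.05 and 0.16 ± 0.05. Ifngr2, a subunit of the interferon gamma receptor, rose by 0.49 ± 0.08 in the striatum and fell by 0.20 on the log2 scale in the cerebellum. The largest receptor change was that of Ifnlr1, which binds type III interferons: it rose by 0.92 ± 0.19 in the striatum (0.420 to 0.803 CPM, group means; adjusted p = 7.9e-05). In the liver 1 of 5 receptor genes rose, Il10rb, which is shared with the interleukin 10 receptor, by 0.28 ± 0.10 (adjusted p = 0.041).

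In signal transduction, 5 of 22 genes rose and 4 fell in the striatum, 9 and 4 in the cortex, 10 and 4 in the cerebellum, and 2 and 0 in the liver. Socs3, a feedback inhibitor of Jak kinases, fell by 1.33 on the log2 scale in the cortex (SE 0.19). Of nucleic acid sensing genes outside the list, 9, 7, 9 and 8 rose and 1, 2, 2 and 1 fell in the 4 tissues. Trim25, a ligase that activates RIG-I, rose by 0.82 ± 0.07, 0.90 ± 0.08 and 0.83 ± 0.08 in the brain, and the nucleotide hydrolase Samhd1 by 0.37 ± 0.04, 0.65 ± 0.05, 0.37 ± 0.05 and 0.35 ± 0.07 in the 4 tissues.

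Genes of MHC class I presentation rose in 20, 16, 16 and 6 of 22 cases in the striatum, cortex, cerebellum and liver, and fell in 0, 2, 2 and 2. The proteasome activator subunit Psme1 rose by 0.90 ± 0.06, 0.58 ± 0.05 and 1.09 ± 0.06 in the brain. MHC class II genes were split in the striatum, where 5 of 10 rose and 4 fell. In the cortex 5 of 10 rose and 2 fell, in the cerebellum 5 of 8 rose and 0 fell, and in the liver 3 of 10 rose and 0 fell. A further list of interferon-stimulated genes had 34 of 61 higher and 4 lower in the striatum, 41 of 62 and 4 in the cortex, 41 of 63 and 1 in the cerebellum, and 30 of 67 and 3 in the liver. Its leading genes were Parp12, with 0.89 ± 0.07, 0.85 ± 0.05 and 1.01 ± 0.06 in the brain, and Ly6a, with 2.36 ± 0.35 in the liver (8.89 to 42.8 CPM). Ly6e fell by 0.68 on the log2 scale in the cortex.

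The counts of the NF-kappaB and inflammatory list turned on the libraries at positions 5, 7 and 8. With all libraries 2 of 14 genes rose and 0 fell in the striatum, 2 of 17 rose and 2 fell in the cortex, 3 of 15 rose and 1 fell in the cerebellum, and 0 of 18 rose and 1 fell in the liver, where DESeq2 gave 1 and 0. Without those positions 5 genes rose and 0 fell in the striatum, 5 and 2 in the cortex, 5 and 1 in the cerebellum and 10 and 0 in the liver. The shares of all genes without those positions are not given here. The WT vehicle male at position 8 summed to 5314 CPM in the liver, and to 203.9 and 197.8 CPM in the striatum and cortex, while the 37 libraries at other positions reached 105.2 and 113.5 CPM there. The prostaglandin synthase Ptgs2 fell by 1.85 on the log2 scale in the cortex, and by 1.71 without them. Socs3 fell by 1.09 in the cortex without them, and in the liver 5 genes of signal transduction and 9 of MHC class I presentation rose.

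Markers of other cells moved with the listed genes in some tissues and not in others. The shares of all genes that rose or fell, given with the interferon lists above, stand beside these counts too. In the cerebellum 16 of 16 microglia markers rose, with summed levels of 138.4 to 179.7 CPM in WT and 196 to 252 CPM in R6/2, and 8 of 10 genes of activated microglia rose and 1 fell. In the striatum 1 of 16 microglia markers rose and 4 fell, and in the cortex 1 rose and 1 fell. Summed microglia markers in the cortex were 427 to 579 CPM in WT and 403 to 525 CPM in R6/2. Of the genes of activated microglia, 4 of 10 rose and 5 fell in the striatum (their summed level had a median of 1010 CPM in WT, 774.9 in R6/2), and 2 of 9 rose and 4 fell in the cortex. Astrocyte markers were lower in sum in all 3 brain tissues with no overlap, at 4483 to 5380 CPM in WT and 2863 to 3180 CPM in R6/2 striatum, 5326 to 6086 and 3247 to 3798 CPM in the cortex, and 4961 to 5826 and 3818 to 4184 CPM in the cerebellum. By gene, 6, 6 and 5 of 10 fell and 2, 2 and 0 rose. The part of these markers in the brain results was not tested.

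In the liver 4 of 4 B cell markers rose, with sums of 1.01 to 3.58 CPM in WT and 3.34 to 7.43 CPM in R6/2, led by Cd79a at 0.599 and 1.53 CPM. Of T cell markers 4 of 8 rose and 1 fell, and of NK cell markers 2 of 4 rose. Kupffer cell markers rose in 3 of 6 cases and fell in 1, and endothelial markers rose in 5 of 10. The summed Kupffer cell markers did not rise with that count. They were 190.4 to 691.4 CPM in WT (median 320.5) and 211.3 to 398.3 CPM in R6/2 (median 256.4), with overlap. Of 4 monocyte markers 0 rose, and 3 did without positions 5, 7 and 8. Their part in the liver result was not tested. The labelled striatum had its defining markers: medium spiny neuron genes summed to 5455 to 7160 CPM in WT striatum and 1859 to 2529 CPM in R6/2 striatum, with 7 of 8 lower, and neuron markers fell in 5, 5 and 4 of 6 cases in the 3 brain tissues.

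Leaving out positions 5, 7 and 8, which was chosen after seeing the data, gave 38, 39, 40 and 34 genes higher and 1 lower in each tissue under vehicle. No drug effect or interaction of drug and genotype passed without them. Shares of all genes are not given for the fits without these positions or without position 40. The larger liver count is therefore not read as a result about the members.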

How the data were processed

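RNA-seq was deposited for 160 mouse libraries. Per the labels' protocols, total RNA was extracted from flash-frozen tissue with miRNeasy and made into Illumina libraries. CASAVA 1.8.2 is the tool that the submitters' processing notes name. For the aligner, counter, strand setting and genome build: not given in the sources used here. Deposited by the authors were FPKM values and estimated counts, of which 68.53% of those above 0 were whole (tolerance 1e-6). Counts were rounded to whole numbers. Samples were grouped by the labels, and columns were joined by library name. Of the 160 FPKM columns, 13 matched the count column of the same header and 160 matched the same group, so FPKM was used by group only.

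Each tissue was fitted with edgeR 4.0.16 in R 4.3.3 (robust quasi-likelihood, filterByExpr by group, TMM factors) over 8 means of genotype, treatment and sex, and p-values were adjusted by Benjamini-Hochberg over all genes of a tissue and contrast, with a threshold of 0.05. A joint fit with 32 means, and 1 spread per gene for all tissues, tested tissue differences. CPM are scaled by TMM within a tissue. The SE is the absolute log2 fold change divided by the square root of F. On simulated striatum counts of 17494 genes, 49 of 49 and 50 of 50 genes changed by 1 in log2 and as many of those changed by 2 were called, with 7 of 16998 unchanged genes. Few genes were changed in that simulation, all had 1 spread, and only those kept by the filter are counted. In the striatum data 29.7% of genes rose and 26.5% fell, and error control in such a setting was not tested. The fits were repeated with DESeq2 1.42.0, with RLE factors, without the filter, with sex as additive, with a replicate block, with runs of library numbers, with limma 3.58.1 on log2(FPKM + 1) and log2(FPKM + 0.1), and without each replicate number. Gene coordinates and symbols came from GENCODE M21 and promoters from RefSeq; the authors' build is unknown, so both serve as names and sequence context.

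All members were counted. Named in full were Irf7, Irf9 and Stat2, the 5 members per tissue with the largest change past the threshold and a mean of at least 1 CPM, and members changed the other way. In other contrasts up to 6 members, or 3 where none passed, and in other lists up to 4 genes with the smallest p were named. A gene that this rule takes in the signal transduction list is not reported here. Other values were added for members described by role. The members, roles and lists were chosen with earlier results of these data known. Each library held at least 28.5 M counts, so 1 CPM is at least 28.5 counts.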

Additional observations from a re-analysis of the deposited data

Results flagged for a closer look

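The highest or lowest library was far from the other 9 of its group in 5 of 78 groups examined, where chance gives about 1 in 20. The mean level in WT vehicle cortex had 1 high library at 2.166, from the female at specimen position 40. WT vehicle striatum had 1 high library for Irf7 (3.693 CPM) and 1 for Ddx60 (2.556 CPM). WT vehicle cortex had 1 for Oasl2 (5.745 CPM), and R6/2 vehicle cortex had 1 for Herc6 (18.78 CPM).

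In the liver under vehicle, the genotype effect differed between females and males for Gbp2 (-2.08), Gbp3 (-1.70), Igtp (-1.69), Zbp1 (-1.44), Gbp7 (-1.32) and Irgm2 (-1.06), as female minus male differences of the log2 fold change in the interaction test. The calls of Zbp1 and Irgm2 were lost under alternatives given above.

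The genotype effect differed between tissues in the joint test for the genes named. Between brain tissues the shares of listed genes that passed were near or below those of all genes. The calls of Irgm1 and Irf9 for the cerebellum minus the striatum were lost in leave-outs, as given above. So were those of Helz2, Ifit2, Zbp1 and Igtp for the cortex minus the striatum, and Zbp1 had low counts in the WT cortex. For the cerebellum minus the striatum the values were -0.78 for Stat2, 0.85 for Helz2, -0.67 for Dtx3l, 0.77 for Cmpk2, 0.34 for Irgm1 and -0.35 for Irf9. For the cortex minus the striatum they were -1.43 for Herc6, 0.50 for Helz2, -0.59 for Ifi27, -0.39 for Ifit2, 1.18 for Zbp1 and -0.51 for Igtp. For the cerebellum minus the cortex they were 1.64 for Herc6, -0.74 for Stat2, 0.87 for Ifi27, 0.68 for Cmpk2, -0.47 for Dtx3l and 0.53 for Irgm1. For the liver minus the mean of the brain tissues they were -0.81 for Ddx58, -0.84 for Parp9, -0.73 for Ifih1, -0.64 for Dtx3l, 0.94 for Cmpk2 and -1.39 for Ddx60.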

How the results depend on the processing

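Counts of higher members under vehicle ranged from 36 to 38 in the striatum, 38 to 40 in the cortex, 38 to 41 in the cerebellum and 23 to 28 in the liver when 1 replicate number was left out. Liver counts were 22 with runs of library numbers as a covariate and 37 on either FPKM scale. Counts of lower members were small and moved more. In the striatum under vehicle, 0 were lower on either FPKM scale and 0 to 1 when a replicate number was left out. In the striatum under CHDI-00340246, 0 were lower with library runs and on either FPKM scale, and 1 to 2 in the leave-outs. In the cortex under CHDI-00340246, 1 was lower without the filter, on either FPKM scale and without positions 5, 7 and 8, and 1 to 2 in the leave-outs. In the liver under vehicle, 1 was lower with the replicate block, with library runs and without positions 5, 7 and 8. For the cortex minus the striatum, members with a higher log2 fold change numbered 0 to 2 in the leave-outs and 1 by limma-voom with or without the specimen position as a block, and those with a lower one numbered 2 with RLE factors, 2 to 4 in the leave-outs and 2 without position 40. For the cerebellum minus the cortex, 4 had a lower one without positions 5, 7 and 8. For the liver minus the brain, 3 to 7 had a higher one in the leave-outs. Stat2, which passed in none of these 3 tissues, was 0.111 and 0.129 in the striatum and 0.0425 and 0.04815 in the cortex on the FPKM scales with pseudocounts of 1 and 0.1, where the median over all genes was 0.11 and 0.16 in the striatum and 0.07 and 0.10 in the cortex. It was -0.0706 to 0.0167 in the striatum leave-outs, -0.0152 to 0.0935 in the liver leave-outs and -0.001712 in the liver with library runs. The causes were not tested.

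Replicate numbers did not pair the libraries: the median correlation of deviations between same-numbered libraries was -0.031 in the striatum, 0.039 in the cortex, -0.017 in the cerebellum and 0.051 in the liver, with 11, 23, 13 and 18 of 60 pairs over 0.1. The replicate block gave 29 higher members in the liver and, apart from the 1 lower there, moved no other count by over 1.5 times. Depth limits the brain values of Oas3, Mx1 and Zbp1 and of the interferon genes.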
